A study of Mus musculus with 4 samples.

Results

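Skeletal muscle fibres contract through the sarcomere, in which thick filaments of myosin pull on thin filaments. The thin filaments carry the calcium-sensitive troponins and are anchored in the Z-discs. Fibres are classed by the myosin heavy chain they express: type I (slow, Myh7), type IIa (Myh2), type IIx (Myh1) and type IIb (fastest, Myh4), with the embryonic (Myh3) and perinatal (Myh8) chains used in development and in regenerating fibres. Most other sarcomere proteins also exist in fast and slow versions, and a muscle's mix of versions sets how fast it shortens and how long it can work. The calf muscles insert on the heel through the Achilles tendon, the tendon cut in the burn/tenotomy (BT) model of heterotopic ossification, the formation of bone outside the skeleton.

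The genes described here are 36 sarcomere and fibre-type genes of skeletal muscle, chosen by symbol from the feature tables, which hold 19465 genes for the sections and 32285 genes for the single-cell libraries. They comprise 15 fast-fibre genes, 8 slow-fibre genes, 2 developmental myosins, 7 genes of the sarcomere frame common to both fibre types and 4 genes of energy and calcium handling. Tissue of the tenotomy site was sampled 7 days after BT. Visium sections A1 and B1 came from wild-type C57BL/6 mice aged 10 weeks, with no statement of whether both sections share a mouse. The 2 single-cell libraries came from Hoxa11CreER;ROSA-LSL-TdTomato;Hif1a fl/fl mice given 75 mg/kg tamoxifen on 5 days, and held unsorted cells. The labels give a tamoxifen washout of 9 days. Library 1 & 2 (marked pooled in the plots) pools replicates 1 and 2, and library 3 (marked rep3) holds replicate 3. The Hoxa11 driver acts in the mesenchymal lineage of the lower limb, and the labels do not say whether each animal carried Cre. No uninjured sample was analysed here and neither library is labelled Cre-negative, so every comparison is between places of a section or between cells of a library.

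Section A1 held 2259744 unique molecules (UMIs) over 3555 spots (median 454 per spot) and section B1 held 2308754 UMIs over 3195 spots (median 516). A Visium spot covers several cells, so a level reflects both how many fibres lie under it and how much RNA each holds, which cannot be told apart. The labels call the tissue tendon. The tendon genes Scx (898 and 932 UMIs in A1 and B1) and Thbs4 (594 and 485 UMIs) were present, Tnmd was low (13 and 30 UMIs), and the keratinocyte gene Krt14 (16696 and 23760 UMIs) and the cartilage gene Col2a1 (9793 and 8284 UMIs) were abundant. The sections were measured with probes of which the number per gene is not given, so levels were compared between places and sections, not between genes. Near-identical myosin heavy chains can share signal, and how the counting treated that is not given in the sources used here.

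The adult myosins are the members on which the spatial pattern turned, so their promoters are shown. In GRCm38 the myosin genes Myh3, Myh2, Myh1, Myh4 and Myh8 stand in that order on the forward strand of chromosome 11 between 67078300 and 67308634, and Myh7 lies on the reverse strand of chromosome 14 between 54970684 and 54994626. The 200 bases before each transcription start are given from RefSeq (GRCm38.p6), with matches to the E-box CANNTG, bound by myogenic factors such as MyoD, and to the MEF2 consensus in capitals.
Myh2, type IIa, chr11:67170827-67171026, forward strand: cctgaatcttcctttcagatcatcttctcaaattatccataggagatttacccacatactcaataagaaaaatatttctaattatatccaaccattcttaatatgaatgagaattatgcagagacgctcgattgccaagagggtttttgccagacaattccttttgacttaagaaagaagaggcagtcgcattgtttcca
Myh1, type IIx, chr11:67199902-67200101, forward strand: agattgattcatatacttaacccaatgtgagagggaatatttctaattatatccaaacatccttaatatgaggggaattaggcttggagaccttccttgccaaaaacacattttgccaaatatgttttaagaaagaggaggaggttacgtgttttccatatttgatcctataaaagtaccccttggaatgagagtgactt
Myh4, type IIb, chr11:67237612-67237811, forward strand: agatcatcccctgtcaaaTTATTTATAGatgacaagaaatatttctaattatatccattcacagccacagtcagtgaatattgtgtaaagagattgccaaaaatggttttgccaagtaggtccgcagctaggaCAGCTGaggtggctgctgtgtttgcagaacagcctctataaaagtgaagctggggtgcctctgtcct
Myh7, type I, chr14:54994627-54994826, reverse strand: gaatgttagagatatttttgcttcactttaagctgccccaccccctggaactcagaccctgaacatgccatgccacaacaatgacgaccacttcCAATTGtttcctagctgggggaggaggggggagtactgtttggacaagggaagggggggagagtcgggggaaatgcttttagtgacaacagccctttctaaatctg
Of these 4 windows, that of Myh4 held 1 E-box and 1 MEF2 match, that of Myh7 held 1 E-box, and those of Myh1 and Myh2 held neither. Over both strands, 27 of the 36 members had a promoter entry. An E-box stood in 77.8% of them against 58.2% of all 32851 promoters, the MEF2 consensus in 18.5% (Myh4, Myh8, Myoz2, Pvalb and Ttn) against 2.29%, and the letters TATAAA in 22.2% (Myh1, Myh3, Myh4, Myh8, Myl1 and Tnnt1) against 9.96%. A member counted if any of its promoter entries held the match, while the share of all promoters counts each entry by itself. Members with several entries can raise the members' share, so the 2 shares are not strictly alike. In the Myh4 window, a TATAAA match on the reverse strand lies inside the MEF2 match. Tnni2, Tnnt3, Actn3, Tcap, Neb, Myoz1, Myoz3, Myot and Cox6a2 had no entry. These matches describe letters, and binding was not measured.

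Fast-fibre genes gave most of the members' UMIs in both sections. The 36 genes gave 15635 UMIs in A1 (0.692% of the section) and 4911 UMIs in B1 (0.213%), and 82.4% and 52.6% of spots held at least 1 of them. Of the members' UMIs, fast genes held 60.8% in A1 and 65.8% in B1, energy and calcium genes 23.2% and 18.5%, the common frame 13.5% and 12.8%, slow genes 2.56% and 2.61%, and developmental myosins 0.0384% and 0.305%. The order of the groups by UMIs was the same in both sections, while the amount of muscle signal differed. Tnnt3 alone gave 5058 of the 9500 fast UMIs in A1 and 1722 of the 3230 in B1. The groups differ in their number of genes and the probes per gene are not known, so these shares are not ratios of RNA.

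Levels scaled to the total UMIs (CPM) over a whole section put 32 of the 35 detected members higher in A1, with a median ratio of A1 to B1 of 2.74. The exact 95% Poisson interval of the ratio lay above 1 for 24 members and below 1 for 0. The same counts were not made over all genes, so how far the members differ from the background is not known. These intervals cover counting error only, and with 1 section of each there is no test of the difference between sections. Tnnt3, the fast troponin T that ties the calcium switch to the thin filament, had 5058 UMIs in A1 and 1722 UMIs in B1 (2238 and 746 CPM, ratio 3.00). Ckm, the muscle creatine kinase that buffers ATP, had 3296 and 823 UMIs (1459 and 356 CPM, ratio 4.09).
The type I myosin Myh7 moved most between the sections, with 183 UMIs in A1 and 19 in B1 (81.0 and 8.23 CPM, ratio 9.84, interval 6.12 to 16.7). The type IIb myosin Myh4 did not follow the other adult myosins: it had 199 and 197 UMIs (88.1 and 85.3 CPM, ratio 1.03, interval 0.843 to 1.26), against 3.25 for Myh1 (378 and 119 UMIs) and 3.40 for Myh2 (226 and 68 UMIs). Atp2a1, the calcium pump of fast fibres (171 and 23 UMIs, ratio 7.60), and Casq1, the calcium store protein of the fast sarcoplasmic reticulum (95 and 16 UMIs, ratio 6.07), stood near the Myh7 end of this order. Neb, the ruler protein of the thin filament (25 and 26 UMIs), and Myot, a Z-disc protein (60 and 55 UMIs), were level, with intervals of the ratio from 0.544 to 1.77 and from 0.760 to 1.64.

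**Figure D1:**
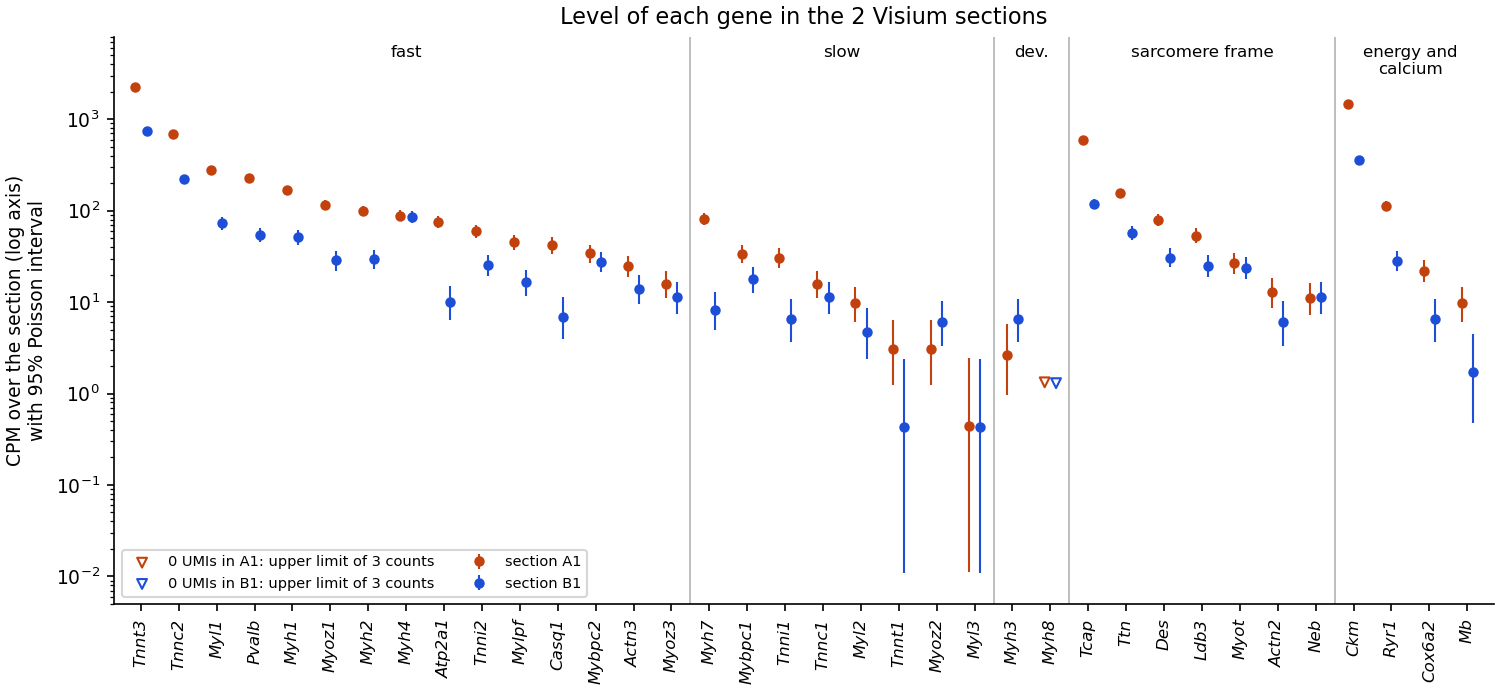
Level of each of the 36 genes in sections A1 and B1, as CPM on a log axis with exact 95% Poisson intervals, ordered by role; open triangles mark 0 UMIs at the limit that 3 counts allow. Tnnt3 (2238 CPM in A1, 746 CPM in B1) and Ckm (1459 and 356 CPM) are higher in A1, Myh4 is level between the sections, and Myh7 stands 9.84 times higher in A1.

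Slow genes were sparse in both sections. Mybpc1, the slow form of the thick-filament protein MyBP-C, had 76 UMIs in A1 and 41 UMIs in B1 (33.6 and 17.8 CPM), and Tnni1, slow troponin I, had 69 and 15 UMIs (ratio 4.70, interval 2.66 to 8.85). Tnnc1, the troponin C of slow and cardiac muscle, had 36 and 26 UMIs, Myl2, the slow regulatory light chain, 22 and 11 UMIs, and Myoz2, the slow calsarcin, 7 and 14 UMIs. Slow troponin T (Tnnt1, 7 and 1 UMIs) and the slow essential light chain (Myl3, 1 and 1 UMIs) were barely found. Only Myh7, Mybpc1 and Tnni1 of the 8 slow genes had an interval of the ratio above 1.
Of the frame and energy genes, Tcap, the titin cap of the Z-disc, had 1342 UMIs in A1 and 275 UMIs in B1 (594 and 119 CPM, ratio 4.99), and Ttn, the giant spring titin, had 351 and 132 UMIs (155 and 57.2 CPM, ratio 2.72). Ryr1, the calcium release channel, had 252 and 65 UMIs (ratio 3.96), and Mb, the oxygen store myoglobin, had 22 and 4 UMIs (ratio 5.62, interval 1.91 to 22.4).

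The developmental myosins were near the limit of detection. Myh8 had 0 UMIs in either section, which allows up to 1.33 CPM in A1 and 1.30 CPM in B1. Myh3 had 6 UMIs in A1 and 15 UMIs in B1, each in a spot of its own, with a ratio of 0.409 (interval 0.130 to 1.11) that includes 1. More Myh3 than the section's rate at a Poisson tail of 0.001 was carried by 2 spots of A1 and 0 of B1. Of the satellite-cell regulators, the muscle stem cell factor Pax7 had 7 and 10 UMIs, Myf5 8 and 7 UMIs, and Myog, a factor of differentiating myoblasts, 43 and 18 UMIs.

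Among pairs of fast and slow versions, the share taken by the fast version can be set side by side between sections. Tnnt3 held 99.9% of the UMIs of Tnnt3 and slow Tnnt1 in both. Tnnc2, fast troponin C, held 97.7% in A1 and 95.1% in B1 of the pair with Tnnc1, and Tnni2, fast troponin I, held 66.0% (Wilson 95% interval 59.3 to 72.2) and 79.7% (69.2 to 87.3) of the pair with Tnni1. The fast version was the larger count in each section for these 3 pairs and for Mylpf with Myl2 (82.3% and 77.6%), Myl1 with Myl3 (99.8% and 99.4%) and the Z-disc calsarcins Myoz1 with Myoz2 (97.4% and 82.5%). Mybpc2, the fast form of MyBP-C, was near even with slow Mybpc1, at 50.3% (42.5 to 58.1) and 61.0% (51.4 to 69.7). The probes of a gene are the same in both sections, so these shares can be read between sections and not as ratios of RNA. Of the 4 adult myosins together, Myh4 held 20.2% (17.8 to 22.8) of 986 UMIs in A1 and 48.9% (44.0 to 53.8) of 403 UMIs in B1, and Myh7 held 18.6% (16.3 to 21.1) and 4.71% (3.04 to 7.25). For both genes the intervals of the sections did not overlap.

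The members were among the most spatially structured genes of the sections. Moran's I, deposited by the authors, is 0 for a gene scattered at random over the spots and rises as neighbouring spots resemble each other. It passed an adjusted p of 0.05 for 23 of 35 members in A1, where 7.12% of 19132 listed genes passed, and for 21 of 35 in B1, where 15.1% of 19222 passed. Both sections called 19 members. Median I was 0.0346 over the members in A1, against -0.000555 over all genes, and 0.0235 in B1, against 0.00247. Tnnt3 ranked 2 in A1 (I 0.411) and 3 in B1 (I 0.463) of all genes, Ckm ranked 3 and 6 (0.401 and 0.425), Tnnc2 7 and 15, Tcap 10 and 37, and Myh4 23 and 25 (0.168 and 0.266). Myh3, Myl2, Myl3, Tnnc1, Actn2, Actn3, Myoz2, Myoz3, Myot and Mb passed in neither section, with 1 to 60 UMIs each.

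Muscle was located without using the members, by the summed UMIs of 13 other muscle genes such as Acta1, the skeletal actin, and Trdn, triadin. Spots of at least 100 UMIs with more of these than the section's rate (Poisson tail 0.001) numbered 23 in A1 (16141 UMIs) and 14 in B1 (9991 UMIs), and had a median of 625 and 628.5 UMIs. In these muscle-marker spots 12 members were higher than in the other spots by edgeR's quasi-likelihood test with Benjamini-Hochberg adjustment, and 0 were lower. Of all 12000 genes tested, 0.108% were called higher, which is 13 genes, and 1.49% lower. Of the 36 members 30 passed the filter on low counts, all 30 with a log2 fold change above 0 and a median of 2.48, against -1.40 over all genes. The other 6 (Myh3, Myh8, Myl3, Tnnt1, Myoz2 and Mb) had too few UMIs. Without the filter, 32 of 35 tested members were above 0. At an unadjusted p under 0.05 the counts were 20 members and 7.60% of all genes.

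The called members covered each role except development. Fast genes called were Tnnt3, Tnnc2, Myl1, Pvalb, Myh1, Myh2 and Myoz1. Tnnt3 stood at 19949 CPM in muscle-marker spots of A1 and 12011 CPM in those of B1, against 2108 and 696 CPM in the other spots (log2 fold change 2.57, SE 0.20, adjusted p = 1.13e-33). Myl1, the fast essential light chain, had 3098 and 1301 CPM against 259 and 67.4 CPM (2.79, SE 0.38, adjusted p = 6.75e-10). Pvalb, the calcium buffer that speeds relaxation of fast fibres, had 2602 and 901 CPM against 213 and 50.5 CPM (2.77, SE 0.41, adjusted p = 1.37e-08). In these genes both muscle-marker sums exceeded both sums of other spots, although the A1 background for Tnnt3 exceeded that of B1.
The fast myosins Myh1 (1859 and 701 CPM against 155 and 48.7 CPM, adjusted p = 3.29e-06) and Myh2 (1301 and 601 CPM against 91.5 and 27.0 CPM, adjusted p = 5.52e-05) rose by 2.66 and 3.01 on the log2 scale. The slow myosin Myh7 rose by a similar 2.99 (SE 0.73, adjusted p = 0.00451), from 17 UMIs in A1 and 2 UMIs in B1 (1053 and 200.2 CPM against 74.1 and 7.40 CPM), so its call rests mostly on A1. Of the frame, Tcap (2.85, adjusted p = 4.50e-21) and Ttn (2.00, adjusted p = 0.0125), were called. Of energy and calcium genes, Ckm (2.54, adjusted p = 5.64e-27) and Ryr1 (2.84, adjusted p = 2.06e-04), were called.
Myh4 was not called in these spots, with 4 and 10 UMIs (248 and 1001 CPM against 87.1 and 81.4 CPM, log2 fold change 1.63, SE 0.66, adjusted p = 0.346). Des, desmin, which links Z-discs to each other and is shared with smooth muscle, was not called either (496 and 400.4 CPM against 76.8 and 29.2 CPM, adjusted p = 0.312). These fitted changes lie below the plain ratios of CPM, whose median log2 over the tested members was 3.17 in A1 and 4.15 in B1, under a scaling that put the median of all genes at -1.40. With DESeq2 size factors in the same test 12 members were again called, beside 18 genes higher (0.15%) and 13 lower in all, so the split of higher against lower calls depends on the scaling while the members were never called lower. The members called numbered 19 with DESeq2 (0.325% of genes called higher), 12 without the filter (0.0831%), 15 without the section as a block (0.242%) and 12 with every spot over tissue (0.117%). When muscle was located by 7 metabolic muscle genes in 18 and 11 spots, 0 members and 0 other genes were called by edgeR, with 28 of 29 members above 0 and 14 at an unadjusted p under 0.05.

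Spots rich in wound mesenchyme genes such as Postn and Tnc (18 in A1 and 24 in B1) lay at least 4 steps from every muscle-marker spot, so no comparison of muscle near the wound with muscle far from it was possible. Muscle-marker spots held 6.65% of the members' UMIs in A1 and 6.78% in B1, so the test was repeated on spots whose neighbourhood within 2 steps was dense in the same markers, a choice made after seeing the data. These 219 spots in A1 and 144 in B1 gave 22 members higher and 0 lower, where 0.49% of 14695 genes were called higher, and the median of all genes was 0.02. Myh4 was called here (306 and 838 CPM against 74.1 and 58.3 CPM, log2 fold change 2.85, SE 0.35, adjusted p = 8.92e-13), as were Casq1, Atp2a1, Tnni2, Mylpf, Actn3, Mybpc1, Mybpc2, Ldb3 and Des. Actn2, Cox6a2, Myl2, Myot, Myoz3, Neb, Tnnc1 and Tnni1 were not called. The choice of neighbourhoods used muscle markers only, but dense neighbourhoods also hold spots of the same patches described next.

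Beyond the members, few genes of the related lists passed the test in the muscle-marker spots themselves. Of 10 tested fast-fibre genes outside the 36, 0 were called (median log2 fold change 1.58, against -1.40 over all genes), and 0 were called of 9 slow and oxidative genes, 4 developmental sarcomere genes, 8 satellite-cell and myogenic regulators, 4 calcium genes and 4 genes of the myotendinous junction, by edgeR. At an unadjusted p under 0.05, 3 of the fast genes were higher (Pgam2, Pfkm and Pygm), as were Myog of the regulators and Jsrp1 of the calcium genes, with 0 higher in the slow, developmental and myotendinous lists. Of 10 atrophy and denervation genes, Mt1, a metallothionein, fell by 1.72 (adjusted p = 8.94e-05). With DESeq2 Mt1 was not called (-1.11, adjusted p = 0.175), and Pgam2, Pygm, Mybph, a myosin-binding protein related to MyBP-C, and Musk, the receptor kinase of the neuromuscular junction, were higher. In the wider neighbourhoods 5 of 10 fast genes were higher, led by the glycolytic enzymes Pgam2 (3.05) and Pygm (2.81), 2 of 12 slow genes, Myom3 of the M-band (3.18) and the chaperone Hspb7 (2.80), and 1 of 7 calcium genes, Jsrp1 (3.72). Runx1 was the only atrophy gene called there, of 12 tested, and fell by 2.67. Of 9 satellite-cell genes, 4 developmental and 4 myotendinous genes 0 were called there by edgeR, and 1, 1 and 0 were past an unadjusted p of 0.05.

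The densest muscle signal formed 2 patches in each section. They were found from the summed UMIs of Tnnt3, Ckm, Tnnc2 and Tcap, as connected sets of at least 10 spots whose windows of 7 spots held at least 4 times the section's rate, a rule set after seeing the maps, so the levels of these 4 genes and the extent of the patches are a description. At 3 times the rate the same rule gave 4 patches in A1 and 5 in B1. The smaller patch had 26 spots in A1 (9808 UMIs) and 53 in B1 (17354 UMIs), and the larger had 172 spots (98384 UMIs) and 103 spots (48805 UMIs). The members took 4.28% of UMIs in the small patch of A1 and 2.14% in that of B1, 5.24% and 3.63% in the large patches, and 0.467% and 0.123% outside. The 13 muscle markers, which did not choose the patches, stood at 1325 and 922 CPM in the small patches, 2277 and 2151 CPM in the large patches and 301 and 209 CPM outside. Of the muscle-marker spots, 1 and 0 lay in the small patches, 14 and 10 in the large patches and 8 and 4 outside. Spots outside the patches still held 64.1% and 56.3% of the members' UMIs.

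**Figure D2:**
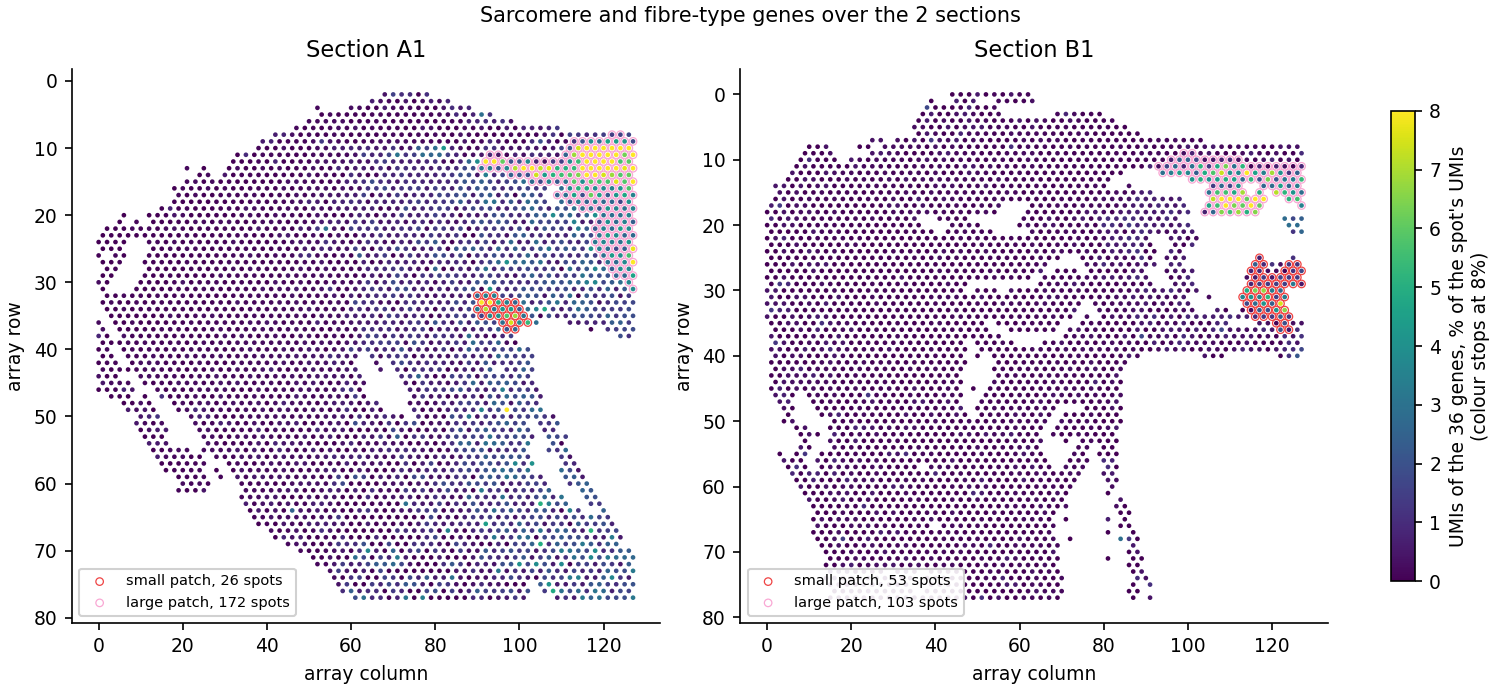
Share of each spot's UMIs that came from the 36 genes, drawn at the spot's column and row on the array for sections A1 and B1, with the spots of the small and large patch outlined. In both sections the dense spots lie at the side of high array columns, in patches of 26 and 172 spots in A1 and 53 and 103 spots in B1, over a field of low values.

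The 2 patches differed in their myosins in both sections. Myh4 gave 29 of 39 adult myosin UMIs in the small patch of A1 (74.4%, Wilson 95% interval 58.9 to 85.4) and 40 of 46 in that of B1 (87.0%, 74.3 to 93.9). In the large patch it gave 29 of 289 in A1 (10.0%, 7.08 to 14.0) and 51 of 120 in B1 (42.5%, 34.0 to 51.4). The intervals of small and large patch did not overlap in either section, and between sections the intervals of the small patches overlapped while those of the large ones did not. With 1 patch of each kind a section, and patches drawn from muscle genes, this difference is a description with no test.
As levels, Myh4 stood at 2957 and 2305 CPM in the small patches and 295 and 1045 CPM in the large patches. Myh1 stood at 816 and 115 CPM in the small patches and 1250 and 943 CPM in the large ones, and Myh2 at 102 and 115 CPM against 640 and 389 CPM. The large patch of A1 also held most of the Myh7 found in patches, with 74 UMIs (25.6% of its adult myosin, 20.9 to 30.9), against 4 UMIs (3.33%, 1.30 to 8.26) in the large patch of B1 and 1 and 2 UMIs in the small patches. The large patch of A1 was thus the one patch with more than 4 UMIs of Myh7.

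Other members also differed in level between the patches, several from few UMIs. Compared were 13 members that did not choose the patches and had at least 10 UMIs in the patches of each section. Myh4 and Mybpc2 were higher in the small than in the large patch in both sections, and Myh1, Myh2, Myl1, Tnni2, Myoz1, Pvalb and Casq1 were lower in both. The same count was not made over all genes. The summed muscle markers were also lower in the small patches, at 1325 and 922 CPM against 2277 and 2151 CPM. In the small patches Tnni2 had 3 and 2 UMIs and Casq1 2 and 0 UMIs. Mybpc2 had 510 and 403 CPM in the small patches and 183 and 328 CPM in the large patches, from 5 and 7 UMIs in the small ones. Pvalb had 816 and 288 CPM in the small patches and 2104 and 1147 CPM in the large patches. Des had 0 UMIs in the small patches, which a count of 0 leaves compatible with up to 376 and 213 CPM (exact upper limits), against 274 and 143 CPM in the large ones. Myh3, Myl3 and Myoz2 had 0 UMIs in any patch. Keratinocyte markers stood at 6219 and 8586 CPM in the small patches, 8396 and 8093 CPM in the large patches and 10059 and 12127 CPM outside, and smooth muscle markers at 306 and 634, 437 and 533, and 513 and 576 CPM. Keratinocyte markers were thus lower in every patch than outside, and smooth muscle markers were lower except in the small patch of B1.

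**Figure D3:**
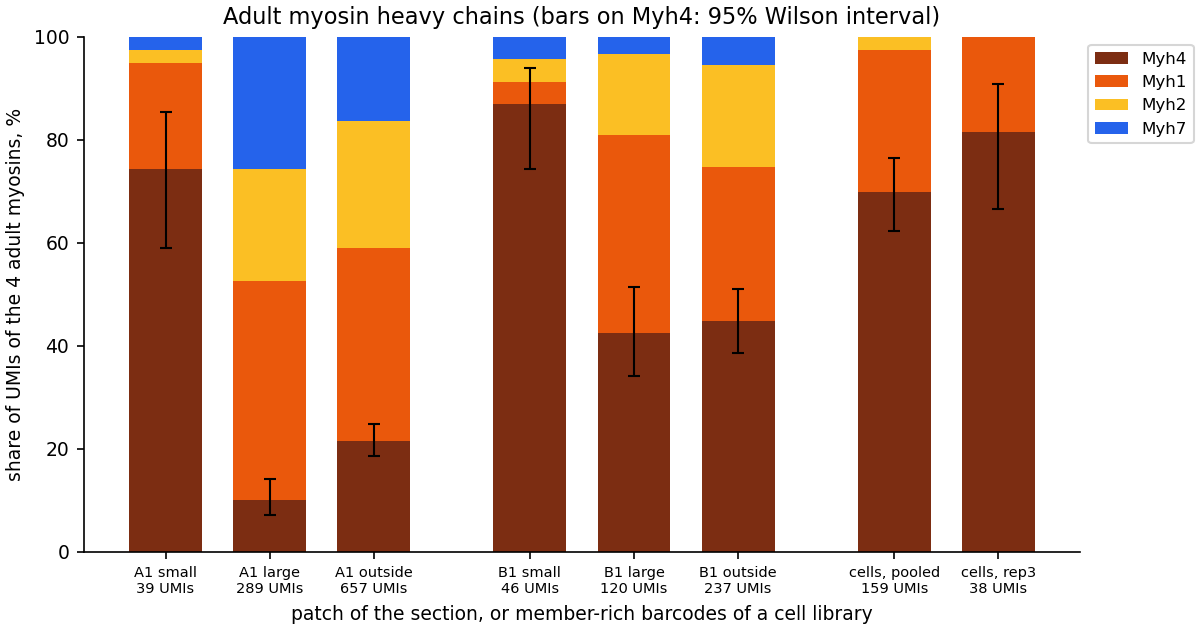
Share of the UMIs of the 4 adult myosins that came from each, in the small patch, large patch and outside of sections A1 and B1, and in the member-rich barcodes of the 2 single-cell libraries; bars on Myh4 are 95% Wilson intervals. Myh4 takes 74.4% and 87.0% in the small patches and 10.0% and 42.5% in the large ones, and 69.8% and 81.6% in the barcodes.

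Within the large patch of A1 the myosins also stood at different places. The mean array column was 106.4 for Myh4 UMIs (29 UMIs in 20 spots), 117.4 for Myh1 (123 UMIs in 80 spots) and 120.6 for Myh7 (74 UMIs in 42 spots), over columns 91 to 127. In B1 the means were 109.6 for both Myh4 and Myh1, and Myh7 had 4 UMIs there. Spots share a section and are no replicates, so this order was not tested.

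The members' share of UMIs was lower farther from the patches at every band in A1. In B1 there were 2 exceptions, a rise at 3 to 5 steps and a slight one beyond 40 steps. The patches were drawn on 4 of the members, so the high share inside and the step at the edge follow from the rule. In steps of the spot grid, it was 5.16% inside the patches of A1, 1.53% at 1 to 2 steps, 1.18% at 3 to 5, 0.982% at 6 to 10, 0.580% at 11 to 20, 0.303% at 21 to 40 and 0.105% beyond. In B1 it was 3.24% inside, 0.313% at 1 to 2 steps, 0.431% at 3 to 5, 0.233% at 6 to 10, 0.149% at 11 to 20, 0.0916% at 21 to 40 and 0.0930% beyond. Single genes did not all fall at every band. Myh7 in A1 ran from 693 CPM inside to 113 CPM at 1 to 2 steps, 129 CPM at 3 to 5 and 18.5 CPM beyond 40 steps. Myh4 in A1 was 536 CPM inside, 595 CPM at 1 to 2 steps, 202 CPM at 3 to 5 and 18.5 CPM beyond 40. In B1 Myh4 was 1375 CPM inside, 25.9 CPM at 1 to 2 steps and 119 CPM at 3 to 5. Des in A1 was 249.6 CPM inside and 64.4, 129, 123, 129.5, 47.6 and 30.8 CPM outward. Low Tnnt3 reached far, with a UMI in 31.7% of spots beyond 40 steps in A1 and 14.3% in B1, where median depths were 919 and 390 UMIs. The members were thus found at low levels over most of both sections.

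**Figure D4:**
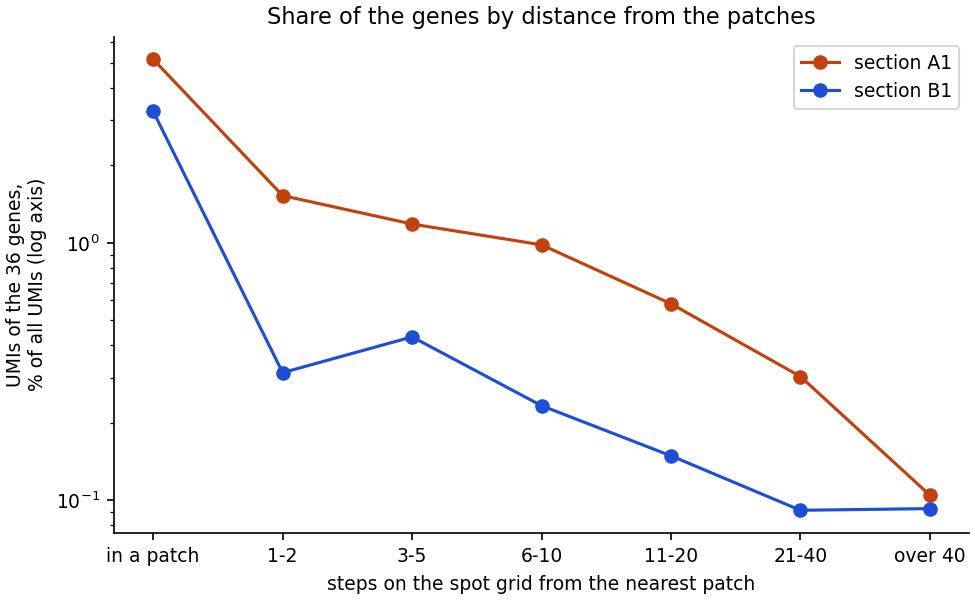
Share of all UMIs that came from the 36 genes, in percent on a log axis, by steps on the spot grid from the nearest patch, for sections A1 and B1. A1 declines from 5.16% inside the patches to 0.105% beyond 40 steps, and B1 from 3.24% to 0.0930%, with the step at the patch edge set by how patches were drawn.

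Correlation over tiles of the tissue differed between pairs of members. Over 67 tiles of A1 and 66 of B1, each 16 columns by 8 rows, Pearson's r of log2(CPM + 100) was 0.948 and 0.864 between Tnnt3 and Ckm, 0.726 and 0.435 between Myh1 and Myh2, 0.581 and 0.606 between Myh1 and Myh4, and 0.368 and 0.346 between Myh4 and Myh7. Between Myh1 and Myh7 it was 0.705 in A1 and 0.229 in B1, and between Myh1 and Des 0.335 and 0.122. The tiles share a section, its depth and its patches, so these are descriptions. Counting noise differed between the pairs, as Tnnt3 had 5058 and 1722 UMIs and Myh7 183 and 19, and its part in r was not tested. With smaller tiles r fell to 0.304 and 0.196 between Myh1 and Myh4 and to 0.179 and 0.00539 between Myh4 and Myh7. With larger tiles it was also lower, at 0.333 and 0.467 between Myh1 and Myh4 and 0.200 and 0.0342 between Myh4 and Myh7. In the tiles of the main size, the order of Tnnt3 with Ckm above the myosin pairs held in both sections.

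In the dissociated cells, a few barcodes, most of them small, carried most of the muscle signal. Members other than Des gave 16987 UMIs in library 1 & 2 (0.0539% of 31536402 UMIs over 2303 barcodes) and 5566 UMIs in library 3 (0.0238% of 23379476 UMIs over 1266 barcodes). Barcodes in which these members took at least 10% of UMIs, with at least 20 such UMIs, numbered 22 and 17 and held 92.0% and 82.9% of the total. The rule picks barcodes by the members themselves, so a high share follows in part from it. The median depth of these barcodes was 1269.5 and 929 UMIs, against 13579 and 17536 UMIs over kept cells. The largest had 22978 UMIs, of which 5674 came from members. The next in library 1 & 2 held 1604, 1551, 1114 and 1065 member UMIs, at depths of 5766 to 7363 UMIs. In that library the larger of these barcodes thus held much of the signal. The libraries share 1 barcode.
Clustered without the members, 19 and 16 of the kept barcodes fell into a cluster led by Acta1, in which the members other than Des took 22.03% and 22.8% of UMIs. This cluster held 93.2% and 85.2% of the UMIs of these members over all kept barcodes. Only 2 of the 14 skeletal muscle markers stood among the cluster's 50 leading genes, under the 3 required, so the cluster has no cell type name here. At under 20 barcodes a library it was not tested. The satellite-cell genes Pax7 and Myf5 had 0 UMIs in both libraries, which allows up to 0.0951 CPM and 0.128 CPM, Myod1 had 2 and 1 UMIs, and the 9 UMIs of Myog in library 3 lay in 2 barcodes.

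Fast genes made up this signal too. Over all barcodes Myl1 had 3087 and 1065 UMIs, Mylpf, the fast regulatory light chain, 2678 and 1203, Tnnc2 2490 and 718, Tnnt3 2126 and 619 and Tnni2 1667 and 426, and the 10 highest barcodes held 82.1% and 73.7% of Myl1. The 8 slow genes gave 387 and 196 UMIs, beside 13886 and 4562 UMIs of fast genes. Tnnt1 had 108 and 68 UMIs, Myoz2 87 and 12, Mybpc1 62 and 12, Tnnc1 61 and 48, Tnni1 40 and 32, Myl3 15 and 16, Myl2 14 and 7, and Myh7 0 and 1. Of the adult myosin UMIs in the member-rich barcodes, Myh4 gave 111 of 159 in library 1 & 2 (69.8%, Wilson 95% interval 62.3 to 76.4) and 31 of 38 in library 3 (81.6%, 66.6 to 90.8). A single barcode gave 60 of the 111. Myh1 gave 44 and 7, Myh2 4 and 0, and Myh7 0 and 0, which allows a share of up to 1.89% and 7.89%. Developmental myosins were again near 0, with 1 and 0 UMIs of Myh3, and 5 and 6 UMIs of Myh8, the 6 in 1 barcode.

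Some members were not confined to the muscle-rich barcodes. Smooth muscle and pericyte-like cells (96 and 53 cells) were compared with the mean of 6 other classes on counts summed per class and library. Of the members 9 passed the filter on low counts and 4 were higher by edgeR's quasi-likelihood test with Benjamini-Hochberg adjustment, where 22.7% of 12643 genes were called higher and 9.63% lower. No member was called lower, and the same 4 passed with DESeq2 size factors (22.5% higher), DESeq2 (21.5%) and no block (22.8%). Without the filter 7 of 34 tested members were called higher (14.4% of all genes). The filter keeps a gene counted in a single class, so members can pass it through the class where they are high. Des had 462 and 569 CPM against a mean of 4.41 and 4.82 CPM in the other classes (adjusted p = 2.85e-10), in 82.3% and 92.5% of cells. Among the other classes it was found in 10.7% and 12.6% of mesenchymal progenitor-like cells, 6.25% and 6.74% of fibroblast-like cells and 0% of keratinocyte-like cells. Myl1 had 39.9 and 26.8 CPM against 1.77 and 1.94 CPM (adjusted p = 1.63e-06), Ldb3, a Z-disc protein, 18.9 and 12.1 CPM against 0.230 and 0.172 CPM (adjusted p = 1.60e-05), and Tnnt1 6.65 and 10.4 CPM against 2.34 and 0.751 CPM (adjusted p = 0.00322). Actn2, Mylpf, Neb, Tnni2 and Tnnt3 were not called.
Depth differed between classes, at medians of 19190 and 21694 UMIs in the smooth muscle class and 26115 and 23064.5 in the keratinocyte-like class. Thinned to 2000 UMIs a cell, the expected share of cells with a UMI was 51.0% and 53.3% for Des, against at most 1.86% in any other fitted class (mesenchymal progenitor-like cells). It was 6.45% and 5.41% for Myl1, against at most 1.28% (mesenchymal progenitor-like cells), and 3.84% and 1.64% for Ldb3, against at most 0.292% (the same class). Keratinocyte-like cells were at 0% for these 3 genes. For Tnnt1 it was 0.881% and 1.86% in the smooth muscle class, within reach of the 1.05% and 0.180% of fibroblast-like cells, so no order is read from its shares.

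Among the fitted classes, Actn2, the Z-disc alpha-actinin shared by muscle and heart, was found mostly in T or NK-like cells. It had 76 UMIs in 22.4% of 116 cells and 70 UMIs in 40.9% of 44 cells (87.1 and 190.8 CPM), against at most 1.89% of cells in any other fitted class. These cells were shallower (medians 6745.5 and 8511 UMIs) than most classes, and thinned to 2000 UMIs the share was 11.9% and 23.1%, against at most 0.216% in the other fitted classes. Neb showed the same class at lower levels, with 12 and 14 UMIs in 6.90% and 13.6% of its cells (thinned, 3.12% and 5.96%, against at most 0.701% in the other fitted classes). The cluster led by Acta1 was not among the fitted classes. In library 1 & 2, 36.8% of its 19 barcodes held Actn2 (14 UMIs) and 42.1% held Neb (58 UMIs). Members' reads in these cells were chosen for mention after their values were seen and were not tested.
Other traces were uneven. Tnnt3 had a UMI in 19.6% and 8.99% of fibroblast-like cells, with 25 of its 56 UMIs in library 1 & 2 from 1 cell, and in 0% of smooth muscle cells. Mylpf had a UMI in 13.5% and 25.0% of keratinocyte-like cells, above its 2.08% and 7.55% in smooth muscle cells (thinned, 1.40% and 4.24% against 0.172% and 1.26%). Cox6a2, the muscle form of a cytochrome oxidase subunit, had 74 UMIs in 7 of 44 cells and 8 UMIs in 3 of 21 cells of an unnamed cluster.

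**Figure D5:**
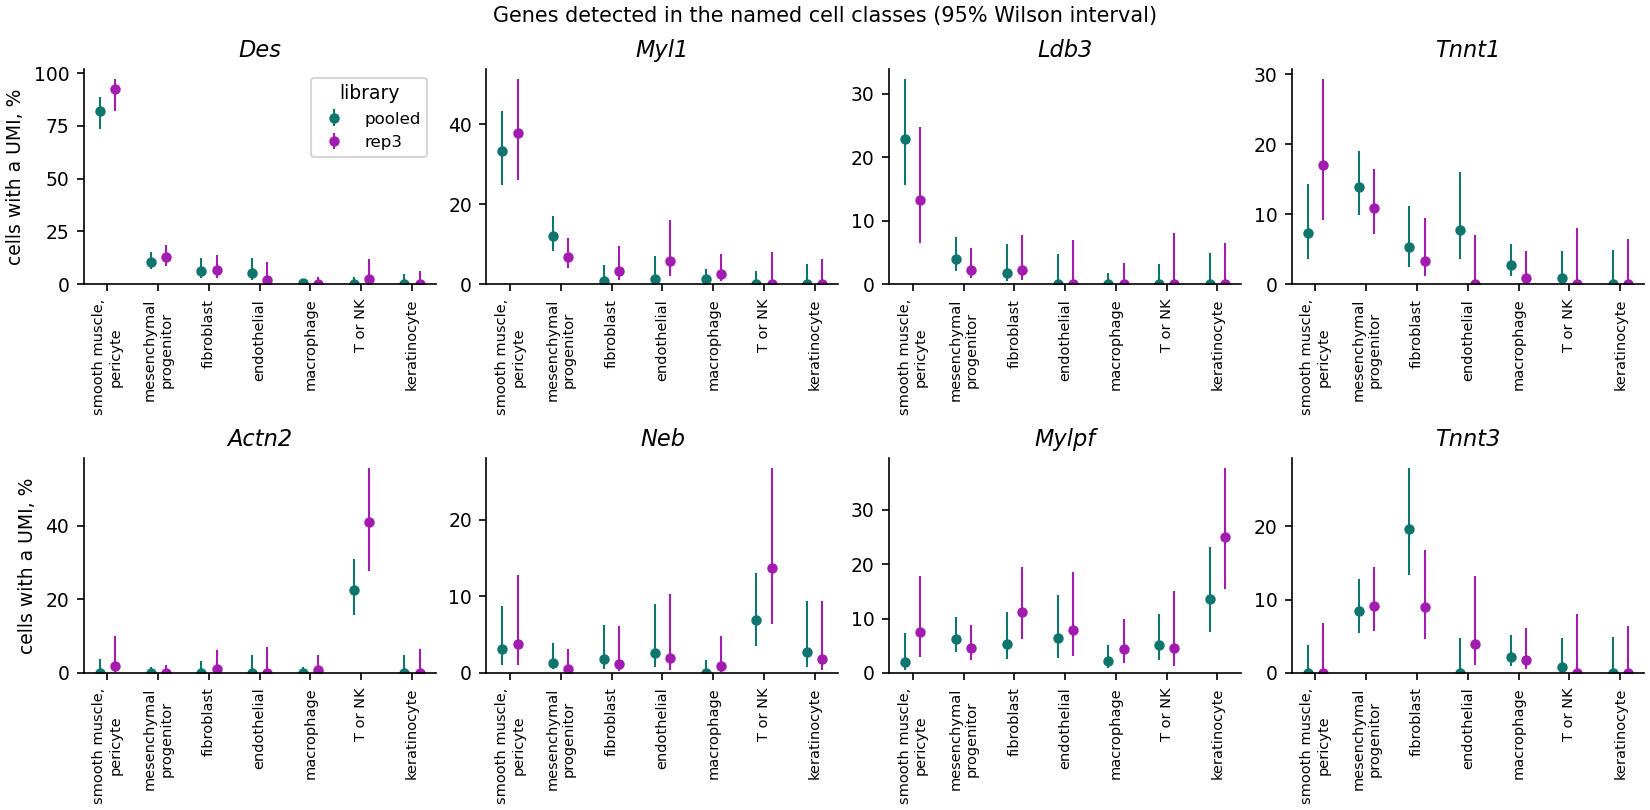
Share of cells with at least 1 UMI of selected members in the named cell classes of library 1 & 2 and library 3, with 95% Wilson intervals. Des stands at 82.3% and 92.5% of smooth muscle and pericyte-like cells and Actn2 at 22.4% and 40.9% of T or NK-like cells. In smooth muscle and pericyte-like cells Myl1 stands at 33.3% and 37.7% and Ldb3 at 22.9% and 13.2%. Mylpf stands at 13.5% and 25.0% of keratinocyte-like cells and Tnnt3 at 19.6% and 8.99% of fibroblast-like cells.

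The lists around the members were tested in the smooth muscle class as well. Both tested calcium genes were higher by edgeR: Jph2, junctophilin, had 46.5 and 45.0 CPM against 1.62 and 1.13 CPM, and Pln, phospholamban, had 63.4 and 51.9 CPM against 0.0160 and 0 CPM. Of 4 developmental sarcomere genes 3 were higher, among them Nes, nestin (93.6 and 125.5 CPM against 15.6 and 17.3 CPM), and Actc1, cardiac actin (35.8 and 12.99 CPM against 0 and 0 CPM). Of 8 slow and oxidative genes 7 were higher and 1 lower, with Hspb7 at 16.4 and 12.99 CPM against 0.692 and 0.548 CPM. Cd36, called higher on the mean of logs, had a lower CPM than the mean of the other classes (56.8 and 96.1 against 168.3 and 183.7 CPM). Of 7 fast genes 3 were higher, with Pygm at 23.5 and 20.8 CPM against 2.23 and 2.84 CPM. Of 7 satellite-cell and myogenic regulators 5 were higher and 1 lower, of 7 atrophy and denervation genes 4 were higher and 1 lower, and of 2 myotendinous genes 1 was higher and 1 lower. With DESeq2, Pln (adjusted p = 0.0877), Actc1 (adjusted p = 0.134) and Phka1, a phosphorylase kinase subunit of the fast list (adjusted p = 0.0672), lost their calls. These counts cover few genes each and stand beside the background of 22.7% higher.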

How the data were processed

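For the cells, the deposited matrices hold unnormalized counts of UMIs from Cell Ranger 5.0.1 run on mm10. For the sections, which used a probe set, the deposited counts of UMIs per spot came from Space Ranger 2.0.1. Its spatial tables, as deposited by the authors, add a Moran's I score with its p-value and a depth-scaled mean signal. The score and p-value were used as deposited, and the signal was not used. The UMI totals of the deposited spatial tables equalled those of the count matrices for all 19132 and 19222 genes.

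The filter on barcodes required 200 genes or more, mitochondrial UMIs of no more than 20%, ribosomal UMIs of 5% or more and totals up to percentile 99, which left 1272 of 2303 and 785 of 1266 barcodes. No doublet caller was run. Seurat 5.3.0 integrated and clustered them (2000 variable genes, 30 components, resolution 0.8) with 135 genes left out, the 36 members and the related gene lists among them. Naming a cluster took 3 or more class markers in its top 50 genes and a lead of 2 over the next class. Unnamed clusters held 331 and 182 cells.

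Counts were summed per section and set of spots, or per library and class, and fitted in edgeR 4.0.16 (quasi-likelihood, TMM, its filter on low counts, section or library as block, Benjamini-Hochberg over all genes, threshold 0.05), with DESeq2 1.42.0 as an alternative. The code was tested on simulated data. The labels do not say that the samples came from separate mice, so p-values rest on the spread between 2 sections or 2 libraries. The test pools its estimate of spread over genes, and in the sections a gene's own spread counted little. Small p-values there are thus no measure of how well that gene repeated between sections. Sums of spots held 9991 to 2298010 UMIs. Intervals (exact Poisson, Wilson) and limits at 0 (3 counts) cover counting error only.

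The members and gene lists were chosen with earlier results of these data known. All 36 members could be named, and from each list the 4 genes with the largest change past the threshold and the same sign in both samples. Contrasts of Myh7-rich, Myh3-rich and wound-near muscle spots, and the search for genes most like Myh4, Myh2, Myh7 and Myh3, could not be made, since under 10 spots or too few UMIs were left. Tiles cover all spots of at least 100 UMIs and not only muscle-marker spots, as these were too few.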

Additional observations from a re-analysis of the deposited data

How the results depend on the processing

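In the muscle-marker comparison, the members called higher numbered 12 as reported and with DESeq2 size factors, without the filter and with every spot over tissue, 19 with DESeq2, 22 in windows of 2 steps (chosen after seeing the data) and 0 with metabolic marker genes, and none was called lower in any of these fits. Genes called higher and lower in all numbered 13 and 179 as reported, 18 and 13 with DESeq2 size factors, 39 and 20 with DESeq2, 72 and 8 in windows of 2 steps, and 0 and 0 with metabolic marker genes. The cause of these differences was not tested. The section served as the replicate block. Without the replicate block 15 members (0.242% of genes called higher), 29 genes higher and 65 genes lower were called. Leaving out a section leaves no degrees of freedom, so only the median log2 ratio of the members is given, 3.17 without replicate 2 and 4.15 without replicate 1, against 2.48 fitted. A stricter Poisson tail left 5 spots in each section and was not run, nor were the alternatives of the contrasts that could not be fitted. In the smooth muscle class 4 of 9 tested members were called (22.7% of genes called higher), or 7 of 34 without the filter (14.4%). At least 10 member UMIs were found in 2.52% of kept barcodes and 1.78% of all barcodes of library 1 & 2, and in 2.68% and 1.97% of library 3. With patches drawn at 6 times the section's rate (added after seeing the data), the Myh4 share was 90.9% in the small patch and 4.71% in the large patch of A1, and 94.7% and 42.9% in those of B1. At 3 times the rate (also added), with 4 and 5 patches, it was 62.5% in the second largest and 11.9% in the largest patch of A1, and 88.0% and 42.5% in those of B1. The myosin shares of the small patches rest on 39 and 46 UMIs.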
